A study of Homo sapiens with 4 samples.

Results

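The genes described here encode the exchangeable parts of cullin-RING ubiquitin ligases: the F-box proteins (symbols beginning FBXO, FBXW or FBXL), the cullin scaffolds, the adaptor SKP1 and the F-box protein SKP2. Their transcripts were measured in the colon cancer line HCT116 after 48 h with 50 nM siRNA, directed against CDK8 on 2 arrays (called siCDK8 1 and 2 here) and a control siRNA on the other 2 (control 1 and 2). CDK8 is the kinase of a detachable Mediator module through which transcription factors act on RNA polymerase II. The titles call the replicates biological without stating separate cultures or transfections, and p-values therefore reflect only how far these arrays spread, which may be technical. Both groups carried an siRNA, the control sequence is not stated, and with CDK8 siRNA as the only treated group the loss of CDK8 cannot be told apart from other effects of that siRNA. Genes were chosen by name, from the 74 transcript clusters (probe sets for a transcribed locus) that the platform annotation gives a matching symbol and no other. Leaving out 3 pseudogenes and taking the brighter cluster of FBXO34, the gene with more than 1, left 70 genes of 22411 on the array. They were 34 FBXO genes, 16 FBXL genes including SKP2, 10 FBXW genes, 8 cullins, SKP1 and the antisense RNA FBXL19-AS1. A further 2 clusters were shared with a neighbouring gene and stayed out.

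A cullin-RING ligase is built on a cullin, whose far end carries a RING protein that recruits the ubiquitin-conjugating enzyme. In the SCF type, SKP1 joins CUL1 to 1 of many F-box proteins, and that protein picks the substrate. FBXW members read substrates through WD40 repeats, FBXL members through leucine-rich repeats, and FBXO members through other domains. The other cullins use other adaptors, such as elongins for CUL2 and CUL5, BTB proteins for CUL3 and DDB1 for CUL4A and CUL4B. In dividing cells SCF ligases time the removal of cyclins and of inhibitors of cyclin-dependent kinases, and in colon cells the β-TrCP F-box proteins turn over β-catenin.

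Values are log2 RMA signals, the background-corrected, normalised summary of the probes of a cluster, and signals of different clusters are not set against each other. Of the 70 genes 59 had a mean signal over the 4 arrays of at least 4.28, the median of all clusters, and were tested among 13956 genes. Differences are CDK8 siRNA minus control siRNA on the log2 scale ± standard error from limma (2 arrays per group), and adjusted p-values are limma's with Benjamini-Hochberg adjustment over all tested genes. A gene was called when its adjusted p lay under 0.05. CDK8 itself went from 9.99 and 10.04 in controls to 7.25 and 7.45 (-2.67 ± 0.09). In a list of Mediator kinase module genes that holds CDK8, 7 were tested. Of these 4 fell (57.1%, against 26.4% of all tested genes), 2 rose (28.6%, against 23.1%) and 1 did not pass. Besides CDK8, CDK19 fell (-1.1, adjusted p = 3.29e-04), while CCNC rose (0.875, adjusted p = 4.16e-04). Median signals over all clusters lay between 4.24 and 4.32 on the 4 arrays. The epithelial markers EPCAM, KRT8, KRT18 and KRT19 had signals from 11.40 to 13.04 on every array, and CDH1 went from 7.02 and 7.28 in controls to 10.06 and 9.90. CDH1 (2.83 ± 0.11), EPCAM (0.65 ± 0.08) and KRT19 (0.43 ± 0.12) were called higher and KRT18 (-0.34 ± 0.09) lower, while KRT8 did not pass; the KRT18 call was lost in each fit with an array left out (adjusted p = 0.0827 to 0.201) and the KRT19 call in all of them except that without siCDK8 2 (0.0749 to 0.237). The intestinal markers CDX2 and VIL1 stayed under the filter level, at most 4.12. The blood cell markers PTPRC and LYZ stayed under it too, at most 3.71, and CD3E reached 4.65 on 1 array. Among the fibroblast markers COL1A2 and LUM stayed at or under 3.78, COL1A1 read 4.72 to 5.02 (0.26 ± 0.07, adjusted p = 0.0287, lost with any array omitted at 0.0840 to 0.135), and DCN read 3.65 and 3.61 in controls and 4.19 and 4.25 with CDK8 siRNA, which left DCN under the filter level. Because RNA was measured in bulk, fewer cells with a transcript and less of it per cell cannot be told apart.

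Taken over the whole group, ligase genes moved about as often as other genes. Of the 59 tested 14 rose (23.7%, against 23.1% of all tested genes) and 17 fell (28.8%, against 26.4%), while 28 did not pass, so that 52.5% were called, near the 49.5% of all tested genes. The median difference was -0.03, against 0.005 over all tested genes, and the median absolute difference 0.265, against 0.27. The groups did not overlap in 48 of the 59 (81.4%, against 74.7% of all tested genes), with 24 higher and 24 lower, where 36.4% and 38.3% of all tested genes did so. Changes of at least 2-fold were called in 2 of the 59 upward and 2 downward, where 5.11% and 5.64% of all tested genes did so. The 2 upward were FBXO22 and FBXO34, the latter on the brighter of its clusters only. The largest difference was that of SKP2. With 1 array left out, the fit has 1 residual degree of freedom, and fewer genes were called each time, among the ligase genes and among all tested genes alike. SKP2, FBXL4, FBXL20, CUL2, FBXO36 and FBXO10 kept their call in all 4 of those fits. The share of all tested genes that did so was not counted.

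**Figure D1:**
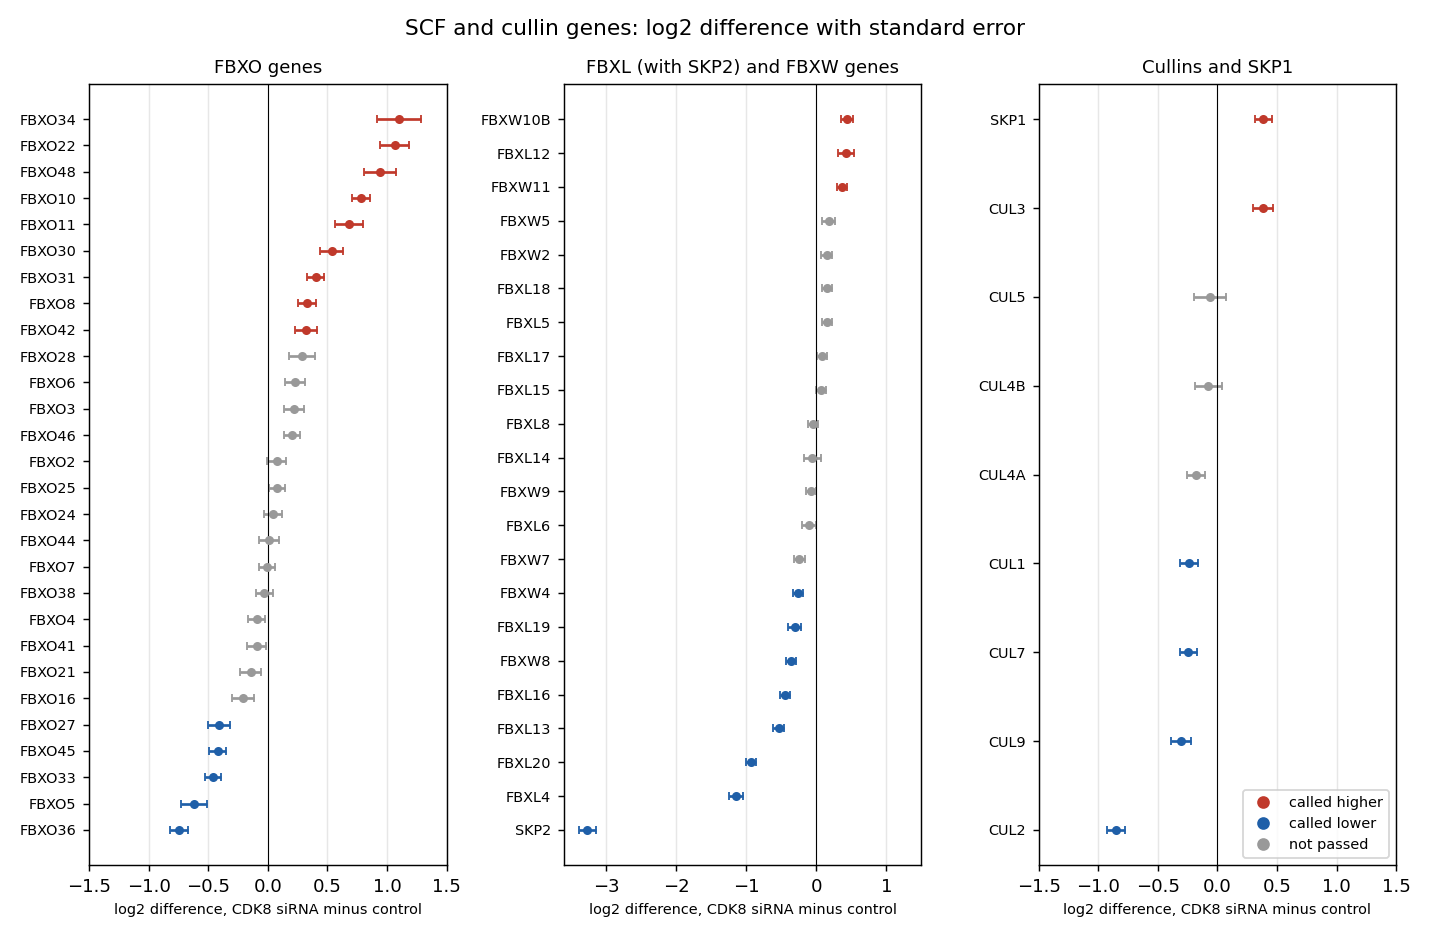
Log2 difference (CDK8 siRNA minus control siRNA, x axis) of the 59 tested genes, with bars of 1 standard error, in panels for FBXO genes, for FBXL and FBXW genes and for cullins with SKP1; red marks genes called higher, blue genes called lower and grey genes that did not pass. The middle panel has a wider axis, and SKP2 at -3.27 lies far to the left of FBXL4 at -1.15.

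SKP2, which presents the CDK inhibitor p27 (CDKN1B) and other cell cycle proteins for ubiquitination, fell the most. The controls read 12.05 and 11.75 and the treated arrays 8.69 and 8.58. The groups lay far apart compared with the spread within each. The difference of -3.27 ± 0.12 is a 9.61-fold fall (adjusted p = 4.68e-05), and 6 of the 13956 tested genes (0.043%) fell further. With any array left out its adjusted p lay between 0.0221 and 0.0271. The region from 250 bases before to 50 bases after the SKP2 start in RefSeq (GRCh38.p14, plus strand, chr5:36151861-36152160) is shown because SKP2 carries the largest change. It was searched on both strands for the E2F motifs TTGGCGC and TTCCCGC, the cell cycle homology region TTTGAA and the CCAAT box, and none of these letters occur in the window, which therefore has no capitals.
SKP2: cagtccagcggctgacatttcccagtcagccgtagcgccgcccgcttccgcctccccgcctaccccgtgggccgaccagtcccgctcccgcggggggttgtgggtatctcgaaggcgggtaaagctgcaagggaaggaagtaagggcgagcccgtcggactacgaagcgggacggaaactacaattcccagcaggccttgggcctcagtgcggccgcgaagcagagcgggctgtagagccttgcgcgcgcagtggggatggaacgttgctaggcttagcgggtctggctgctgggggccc

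The genes around SKP2 did not move as a block. From a list of 15 cofactors, substrates and related cell cycle genes, 8 fell, 3 rose and 4 did not pass (53.3% lower and 20% higher, against 26.4% and 23.1% of all tested genes). One of the risers was the E-cadherin gene CDH1 (2.83 ± 0.11), which stood in the list through a name shared with the protein of FZR1. Without CDH1 the count was 8 lower, 2 higher and 4 not passed of 14. Leaving out a gene that rose could only raise the share of falls. The list was chosen with earlier results of these data known. CKS1B, the cofactor SKP2 needs to bind p27, read 8.52 and 8.47 in controls and 8.52 and 8.48 with CDK8 siRNA (0.005 ± 0.07, adjusted p = 0.963), so the arrays overlapped. Its paralog CKS2 fell from 12.48 and 12.40 to 11.04 and 11.27 (-1.29 ± 0.10). The p27 gene CDKN1B fell from 8.05 and 8.11 to 7.54 and 7.57 (-0.53 ± 0.07, adjusted p = 0.00210). RBL2, the p130 pocket protein and also an SKP2 substrate, fell by 1.40 ± 0.07, and the cyclin A gene CCNA2 by 1.06 ± 0.11. CDK2, their kinase partner, stood at -0.04 ± 0.07 (adjusted p = 0.694). The CCNA2 call was lost without control 2 (adjusted p = 0.0502), and those of CDKN1B, CKS2 and RBL2 were kept in all 4 such fits.

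With SKP2 counted, 6 of the 14 tested leucine-rich repeat genes fell (42.9%, against 26.4% of all tested genes), 1 rose (7.14%, against 23.1%) and 7 missed the threshold, so that as a whole they were called about as often as all tested genes (50% against 49.5%). Their median difference was -0.08. FBXL4, a mitochondrial F-box protein that restrains mitophagy, fell from 8.01 and 8.18 to 7.05 and 6.85, a 2.21-fold fall (-1.15 ± 0.10, adjusted p = 5.03e-04). FBXL20, described at synapses and in vesicle trafficking, fell from 7.70 and 7.72 to 6.82 and 6.73 (-0.94 ± 0.07, adjusted p = 3.18e-04). In both genes each treated array lay under both controls, as in 38.3% of all tested genes. Neither call was lost with any array omitted. Smaller falls were called for FBXL13 (-0.54 ± 0.08), FBXL16 (-0.45 ± 0.07) and FBXL19 (-0.31 ± 0.09), a CpG island binding protein. FBXL12 rose by 0.43 ± 0.11. FBXL5, the iron-sensing receptor for IRP2, read 7.45 and 7.38 in controls and 7.53 and 7.60 with CDK8 siRNA, without overlap but under the test (0.15 ± 0.07, adjusted p = 0.152). FBXL17, which removes mispaired BTB dimers, stood at 0.08 ± 0.07 and FBXL14, a receptor for the SNAIL transcription factor, at -0.06 ± 0.13, and neither passed. FBXL6, FBXL8, FBXL15 and FBXL18 lay between -0.11 and 0.15 and did not pass. The calls of FBXL19 (adjusted p = 0.0582 to 0.162) and FBXL12 (0.0547 to 0.182) were lost with any array left out, that of FBXL16 without control 1 (0.0591) or 2 (0.0659), and that of FBXL13 without siCDK8 1 (0.0502) or 2 (0.0506).

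Of the 8 tested FBXW genes, the WD40 repeat family, 2 rose and 2 fell (25% each way, against 23.1% and 26.4% of all tested genes), and all lay between -0.36 and 0.44. FBXW7 is the receptor for cyclin E, MYC and JUN, and also for MED13, which holds CDK8 on Mediator. It read 8.57 and 8.55 in controls and 8.25 and 8.39 with CDK8 siRNA. Both treated arrays were lower, but the difference did not pass (-0.24 ± 0.08, adjusted p = 0.0526), and it did so with quantile normalisation (-0.25, adjusted p = 0.0489), with arrays centred on their medians (-0.32, adjusted p = 0.0227) and with a filter at 6.17 (adjusted p = 0.0480). FBXW11, the β-TrCP2 receptor for β-catenin and IκB, rose from 8.80 and 8.80 to 9.12 and 9.21 (0.37 ± 0.07, adjusted p = 0.00901). Its paralog BTRC, which encodes β-TrCP1 and is named outside the symbol rule, fell from 8.49 and 8.35 to 7.85 and 7.81 (-0.59 ± 0.08, adjusted p = 0.00219). FBXW8, the F-box partner of CUL7, fell by 0.36 ± 0.07 and FBXW4 by 0.27 ± 0.07. FBXW2 (0.15 ± 0.08), FBXW5 (0.18 ± 0.09), which also serves CUL4 ligases, and FBXW9 (-0.08 ± 0.07) did not pass. FBXW10B rose by 0.44 ± 0.08, and FBXW10, under the filter level at 3.66 and 3.74 in controls and 4.17 and 4.16 after CDK8 siRNA, differed by 0.47. These are closely related copies on chromosome 17 whose probes may not tell them apart. The FBXW4 call did not survive the omission of any array (adjusted p = 0.0755 to 0.143). Those of FBXW8, FBXW10B and FBXW11 were lost without control 1 (0.0736, 0.0890 and 0.0830) or 2 (0.0754, 0.0873 and 0.0841), and that of FBXW11 without siCDK8 2 as well (0.0505).

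**Figure D2:**
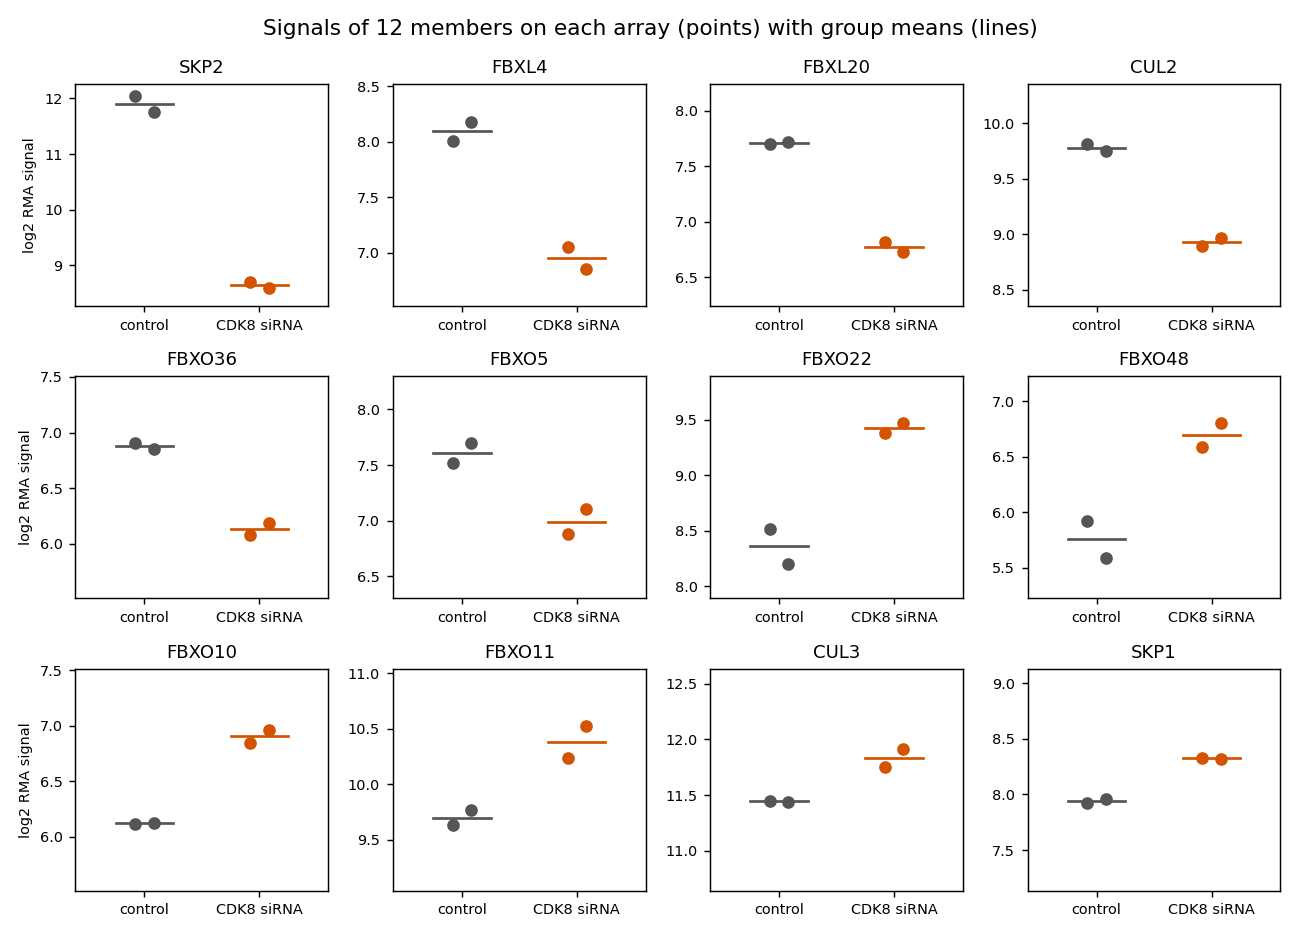
Log2 RMA signal (y axis) of 12 ligase genes on each control siRNA (grey) and CDK8 siRNA (orange) array, with lines at group means; every panel spans 2 log2 units except that of SKP2, which spans 4. All 12 genes were picked from those called, and in each the points of the groups do not overlap, which held for 74.7% of all tested genes.

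Of 28 tested FBXO genes 9 rose (32.1%, against 23.1% of all tested genes), 5 fell (17.9%, against 26.4%) and 14 did not pass. In all 50% were called, against 49.5%. FBXO22, a receptor for the histone demethylase KDM4A and for BACH1, rose from 8.52 and 8.20 to 9.38 and 9.47, a 2.09-fold rise (1.07 ± 0.12, adjusted p = 0.00109). FBXO48 rose from 5.92 and 5.59 to 6.59 and 6.80 (0.94 ± 0.14), and FBXO10, a receptor for BCL2, from 6.12 and 6.13 to 6.85 and 6.96 (0.78 ± 0.08). In these genes every treated array was above every control, as in 36.4% of all tested genes. FBXO11, a receptor for BCL6 and for the CUL4 receptor DTL, rose from 9.63 and 9.77 to 10.24 and 10.52 (0.68 ± 0.12). FBXO30 (0.54 ± 0.10), FBXO31 (0.40 ± 0.07), which directs cyclin D1 to degradation, FBXO8 (0.33 ± 0.07) and FBXO42 (0.32 ± 0.09) rose less. With 1 array left out the FBXO10 call was kept each time. Without control 1, calls were lost for FBXO11 (0.103), FBXO30 (0.0553), FBXO31 (0.0647), FBXO8 (0.106) and FBXO42 (0.190), and without control 2 for FBXO11 (0.0776), FBXO48 (0.0548), FBXO31 (0.0757), FBXO8 (0.0984) and FBXO42 (0.147). Without siCDK8 1 they were lost for FBXO22 (0.05), FBXO48 (0.0563), FBXO30 (0.103) and FBXO42 (0.102), and without siCDK8 2 for FBXO22 (0.0564), FBXO48 (0.0775), FBXO11 (0.0534), FBXO30 (0.0943) and FBXO8 (0.0622). The FBXO42 call was also lost with centred arrays (adjusted p = 0.0621).

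FBXO34 changed in opposite directions on its 2 transcript clusters. On the brighter cluster, which the gene-wise test used, it read 11.29 and 11.03 in controls and 12.01 and 12.51 with CDK8 siRNA (1.10 ± 0.18, adjusted p = 0.00440). On the dimmer cluster it read 7.39 and 7.66 in controls and 7.01 and 6.94 with CDK8 siRNA (-0.55 ± 0.12). Tested over 33786 transcript clusters in place of genes, the adjusted p-values were 0.0149 and 0.0265, so each cluster was called in its own direction. The mean of both clusters differed by 0.28 and was not called (adjusted p = 0.0553). The call of the brighter cluster was lost without control 1 (0.0781) or 2 (0.113) or siCDK8 2 (0.0562). RefSeq gives FBXO34 more than 1 start, and the windows of both (GRCh38.p14, plus strand, chr14:55271171-55271470 and chr14:55271904-55272203) are shown for that reason. Capitals mark an E2F motif TTCCCGC 159 bases before the upstream start and a CCAAT box on the other strand 86 bases before it, and the downstream window holds none of the motifs searched. Which cluster reads transcripts from which start was not analysed here.
FBXO34 upstream start: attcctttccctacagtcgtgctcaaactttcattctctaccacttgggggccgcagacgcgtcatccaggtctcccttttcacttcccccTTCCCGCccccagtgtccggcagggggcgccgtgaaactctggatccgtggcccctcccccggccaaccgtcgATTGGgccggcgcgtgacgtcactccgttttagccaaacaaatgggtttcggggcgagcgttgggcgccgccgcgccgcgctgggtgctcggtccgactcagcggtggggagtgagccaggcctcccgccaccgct
FBXO34 downstream start: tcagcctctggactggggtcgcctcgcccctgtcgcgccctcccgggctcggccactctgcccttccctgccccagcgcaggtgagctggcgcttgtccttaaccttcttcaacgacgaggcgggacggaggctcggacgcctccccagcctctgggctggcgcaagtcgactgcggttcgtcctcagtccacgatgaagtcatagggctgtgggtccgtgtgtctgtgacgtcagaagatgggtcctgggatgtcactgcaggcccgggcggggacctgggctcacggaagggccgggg

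**Figure D3:**
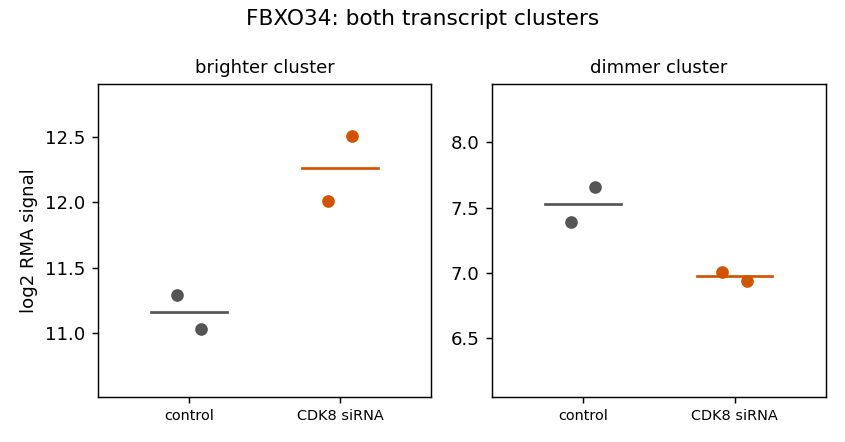
Log2 RMA signal (y axis) of the brighter and the dimmer FBXO34 transcript cluster on each control siRNA (grey) and CDK8 siRNA (orange) array, with lines at group means. The brighter cluster is higher with CDK8 siRNA by 1.10 and the dimmer one lower by 0.55 (a difference of -0.55).

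Among the FBXO genes that fell was FBXO5, which encodes EMI1, the inhibitor that holds back the anaphase-promoting complex (APC/C) until mitosis. It went from 7.52 and 7.70 to 6.88 and 7.10 (-0.62 ± 0.11, adjusted p = 0.00552), without overlap. FBXO36 fell from 6.91 and 6.85 to 6.08 and 6.19 (-0.75 ± 0.08, adjusted p = 8.19e-04), and its call was kept with any array left out. FBXO33 (-0.46 ± 0.07), FBXO45 (-0.42 ± 0.07), which pairs with the ligase MYCBP2 rather than with CUL1, and FBXO27 (-0.41 ± 0.09), a glycoprotein-binding receptor, fell less. Calls were lost without control 1 for FBXO5 (0.0634), FBXO33 (0.0503), FBXO45 (0.0591) and FBXO27 (0.111), and without control 2 for FBXO5 (0.0972), FBXO45 (0.0662) and FBXO27 (0.135). FBXO5 was also lost without siCDK8 1 (0.0747) and FBXO27 without siCDK8 2 (0.0605). The window at the FBXO5 start (GRCh38.p14, minus strand, chr6:152982992-152983291) is shown because FBXO5 is a cell cycle F-box gene that was called lower. A link between motifs and this fall was not tested. Capitals mark 4 CCAAT boxes, at 141, 138, 98 and 68 bases before the start, the outermost pair overlapping. Only the box at 141 lies on the strand shown, and those at 138, 98 and 68 lie on the other strand. A cell cycle homology region is marked on the other strand too, 40 bases before the start. The other FBXO5 window in RefSeq holds none of the motifs.
FBXO5: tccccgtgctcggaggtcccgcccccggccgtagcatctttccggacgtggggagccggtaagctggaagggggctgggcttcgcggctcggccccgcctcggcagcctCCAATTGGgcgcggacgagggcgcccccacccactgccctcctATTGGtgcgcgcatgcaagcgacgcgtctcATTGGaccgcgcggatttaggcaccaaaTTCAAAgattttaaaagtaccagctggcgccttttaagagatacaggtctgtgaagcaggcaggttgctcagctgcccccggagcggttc

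Among all 35116 RefSeq windows of this length, 34.6% held a CCAAT box, 15.2% TTTGAA, 6.55% TTCCCGC and 3.04% TTGGCGC. Windows were found for 56 of the 70 genes. Counting a gene when any of its windows matched, TTCCCGC occurred in 4 of 14 genes that fell, 2 of 13 that rose and 3 of 20 that did not pass, against 12.5% of tested genes with a window. A CCAAT box occurred in 5 of the 14, 4 of the 13 and 8 of the 20, against 43.1%, and TTTGAA in 2, 1 and 3, against 13.9%. TTGGCGC occurred in 1 of the 14 and in 0 of the others, against 5.82%. These are counts of letters in a window, described and not tested.

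The other 14 tested FBXO genes did not pass and lay between -0.21 (FBXO16) and 0.29 (FBXO28). FBXO7, linked to mitophagy and a parkinsonian syndrome, read 9.82 and 9.79 in controls and 9.80 and 9.80 with CDK8 siRNA. FBXO3 was at 0.22 ± 0.08 (adjusted p = 0.0790), FBXO28, a regulator of MYC, at 0.29 ± 0.11 (adjusted p = 0.0758), and the glycoprotein receptor FBXO6 at 0.23 ± 0.09 (adjusted p = 0.0716). In each of these 3 genes both treated arrays were higher than both controls, as in 36.4% of all tested genes. FBXO4, a receptor for cyclin D1, stood at -0.10 ± 0.07, FBXO21 at -0.15 ± 0.09 and FBXO38 at -0.03 ± 0.07. FBXO2, FBXO24, FBXO25, FBXO41, FBXO44 and FBXO46 lay between -0.10 and 0.20.

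Of the 8 cullin scaffolds 4 fell (50%, against 26.4% of all tested genes), 1 rose (12.5%, against 23.1%) and 3 did not pass, with a median difference of -0.21. Of the 4 falls that of CUL2 was kept with any array left out, and those of CUL1, CUL7 and CUL9 in none of these fits. CUL2, the scaffold of the VHL ligase that degrades hypoxia-inducible factors, fell from 9.81 and 9.75 to 8.89 and 8.97, a 1.80-fold fall (-0.85 ± 0.07, adjusted p = 4.47e-04). CUL3, the scaffold of BTB ligases, rose from 11.45 and 11.44 to 11.75 and 11.91 (0.39 ± 0.08, adjusted p = 0.0119). CUL1, the scaffold of SCF ligases, went from 11.20 and 11.17 to 10.89 and 11 (-0.24 ± 0.08, adjusted p = 0.0448), a fall of 1.18-fold. SKP1, which links CUL1 to the F-box proteins, rose from 7.92 and 7.96 to 8.33 and 8.32 (0.39 ± 0.07, adjusted p = 0.00601). The groups of these 4 genes did not overlap, which held for 74.7% of all tested genes. CUL7, the partner of FBXW8, fell by 0.25 ± 0.07 and its relative CUL9 by 0.31 ± 0.09.

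The remaining cullins did not pass. CUL4A stood at -0.18 ± 0.07 (adjusted p = 0.0916), and was called with quantile normalisation (-0.23, adjusted p = 0.0426) and with centred arrays (-0.26, adjusted p = 0.0316). Its paralog CUL4B (-0.08 ± 0.12) and CUL5 (-0.06 ± 0.13), the scaffold of SOCS box ligases, varied more between the CDK8 siRNA arrays, which read 10.57 and 10.88 for CUL4B and 11.12 and 11.49 for CUL5. The calls of CUL1 (adjusted p = 0.0599 to 0.188), CUL7 (0.0592 to 0.149) and CUL9 (0.0790 to 0.189) were lost with any array left out, and that of CUL1 without the filter (0.0592) and with a trended variance (0.0643). Those of CUL3 and SKP1 were lost without control 1 (0.111 and 0.0637) or 2 (0.117 and 0.0566), and that of CUL3 without siCDK8 2 (0.0540).

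Genes that switch cullins on and off moved in both directions, as did the receptors of the other cullins. Of 11 tested RING and neddylation genes 4 rose (36.4%, against 23.1% of all tested genes), 2 fell (18.2%, against 26.4%) and 5 did not pass, which makes 54.5% called, near the 49.5% of all tested genes. DCUN1D5, which helps to attach NEDD8 to cullins, rose from 9.07 and 9.09 to 10.28 and 10.27 (1.195 ± 0.07, adjusted p = 1.31e-04), and DCUN1D1 rose by 0.81 ± 0.09. NAE1, a subunit of the NEDD8-activating enzyme, fell from 12.42 and 12.30 to 11.31 and 11.51 (-0.95 ± 0.10), and the NEDD8-conjugating enzyme gene UBE2F fell by 0.57 ± 0.08. Of 12 genes for CAND exchange factors and the COP9 signalosome, which strips NEDD8 off, 3 rose (25%, against 23.1%), 4 fell (33.3%, against 26.4%) and 5 did not pass. COPS8 rose by 0.85 ± 0.09, while COPS2 (-0.63 ± 0.08), COPS3 (-0.47 ± 0.08) and GPS1 (-0.46 ± 0.09) fell. Of 10 listed genes for conjugating and partner enzymes only 5 had a usable cluster, and these were tested. Among them 2 rose (40%, against 23.1% of all tested genes) and 3 fell (60%, against 26.4%), shares that move far with each gene. UBE2R2 (0.78 ± 0.10) and ARIH2 (0.43 ± 0.07) rose, while CDC34 (-0.48 ± 0.10), UBE2D4 (-0.42 ± 0.07) and UBE2G1 (-0.26 ± 0.08) fell. The calls of GPS1 (0.0573 to 0.101) and UBE2G1 (0.0931 to 0.205) were lost in each fit with an array left out, and that of UBE2G1 without the filter (0.0671) and with a trended variance (0.0667) too. Calls were lost without control 1 for DCUN1D1 (0.0511), COPS2 (0.0557), COPS3 (0.0537), CDC34 (0.139) and UBE2D4 (0.0594), and without control 2 for DCUN1D1 (0.0527), COPS2 (0.0582), CDC34 (0.133), UBE2D4 (0.0505) and ARIH2 (0.0618). They were lost without siCDK8 1 for COPS3 (0.0516) and ARIH2 (0.0537), and without siCDK8 2 for COPS3 (0.0534) and UBE2R2 (0.0536).

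Of the receptor lists, that of CUL3 partners held the widest changes. Of 37 tested BTB genes 12 rose (32.4%, against 23.1% of all tested genes), 15 fell (40.5%, against 26.4%) and 10 did not pass. At least 2-fold changes were called in 6 upward and 3 downward, where all tested genes had 5.11% and 5.64%. KLHL28 rose 8.40-fold, from 7.89 and 7.70 to 10.59 and 11.14 (3.07 ± 0.19), and KLHL2 3.59-fold (1.85 ± 0.09). RHOBTB3 fell 6.10-fold, from 11.37 and 11.30 to 8.61 and 8.84 (-2.61 ± 0.10), and IVNS1ABP 4.20-fold (-2.07 ± 0.08). For CUL4 ligases, in a list that holds FBXW5 too, 5 of 29 rose (17.2%), 10 fell (34.5%) and 14 did not pass, a called share of 51.7% near the 49.5% of all tested genes, and the falls of at least 2-fold were DCAF12 (-1.99 ± 0.09), DTL (-1.46 ± 0.11), the receptor for the licensing factor CDT1, DET1 (-1.33 ± 0.09) and DCAF7 (-1.04 ± 0.09). For CUL2 and CUL5 ligases 8 of 28 rose (28.6%, against 23.1% of all tested genes), 9 fell (32.1%, against 26.4%) and 11 did not pass, with ZYG11B (-1.43 ± 0.08) and KLHDC3 (-1.11 ± 0.10) lower and SOCS2 (1.08 ± 0.10) and FEM1C (0.94 ± 0.08) higher. The CUL7 partners CCDC8 and OBSL1 lay under the filter level. Every gene named here with a value kept its call with any array left out.

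**Figure D4:**
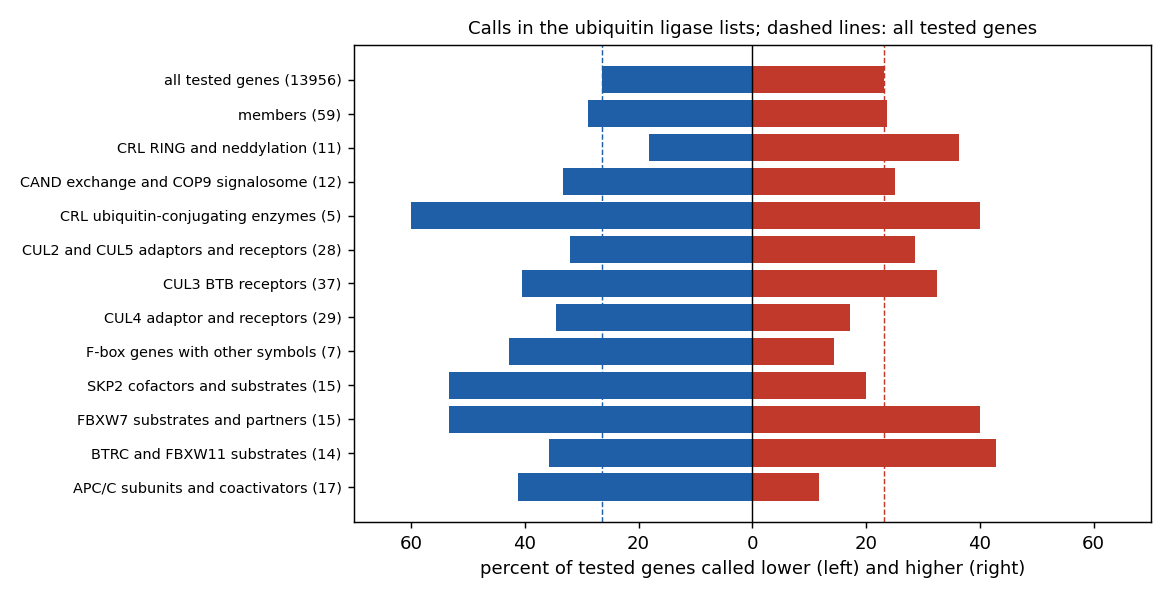
Percent of tested genes called lower (blue, left) and higher (red, right) in all tested genes, in the 59 ligase genes and in 11 lists of related genes, with the number tested in brackets; dashed lines mark the percentages of all tested genes, 26.4 and 23.1. The bars of the ligase genes end close to the dashed lines, and short lists such as that of 5 enzymes move far with each gene. The list of SKP2 cofactors and substrates is drawn with CDH1 in it.

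F-box genes with symbols outside the rule included CCNF, the cyclin F gene, which fell from 8.85 and 8.83 to 7.84 and 7.79 (-1.03 ± 0.07, adjusted p = 2.12e-04). Of the 7 tested, 3 fell (42.9%, against 26.4% of all tested genes) and 1 rose (14.3%, against 23.1%), the others called being BTRC, KDM2B (-0.32 ± 0.08) and LMO7 (0.56 ± 0.08). The calls of KDM2B and LMO7 were lost without control 1 (adjusted p = 0.131 and 0.0621) or 2 (0.115 and 0.0586), and that of KDM2B without siCDK8 2 (0.0730). Transcripts of known FBXW7 substrates and partners were called in 14 of 15 genes (93.3%, against 49.5% of all tested genes), 8 lower (53.3%, against 26.4%) and 6 higher (40%, against 23.1%). This list, like the others, was chosen with earlier results of these data known. How often genes of similar signal were called was not counted. AURKA (-1.71 ± 0.08) fell, while MED13 (1.96 ± 0.09), JUN (1.78 ± 0.07) and MCL1 (1.45 ± 0.07) rose. Among β-TrCP substrates, a list that holds FBXO5 too, 6 of 14 rose (42.9%, against 23.1%), 5 fell (35.7%, against 26.4%) and 3 did not pass, led by the IκBα gene NFKBIA (3.81 ± 0.11) and NFKB2 (1.56 ± 0.11) upward and CLSPN (-1.09 ± 0.08) and CDC25A (-1.03 ± 0.09) downward. For the APC/C, the ligase that FBXO5 inhibits, 7 of 17 genes fell (41.2%, against 26.4% of all tested genes), 2 rose (11.8%, against 23.1%) and 8 did not pass, so that 52.9% were called, near the 49.5% overall. Its subunit gene CDC23 rose from 9.02 and 8.89 to 10.60 and 10.42 (1.56 ± 0.10), whereas the subunit genes CDC27 (-1.07 ± 0.10) and ANAPC16 (-0.80 ± 0.07) and the coactivator gene CDC20 (-1.17 ± 0.12) fell. These lists hold transcripts, and protein levels, on which the ligases act, were not measured.

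The 11 genes under the filter level include F-box genes known from muscle or germ cells. FBXO32, the muscle atrophy gene atrogin-1, read 3.87 and 3.91 in controls and 3.92 and 3.86 with CDK8 siRNA. FBXO43, the EMI2 gene of oocyte meiosis, lay between 3.19 and 3.35, and FBXO40, a muscle gene, between 3.38 and 3.49. FBXO47, FBXO39, FBXW12, FBXL7, FBXL22 and FBXO15 had means from 3.21 to 4.12. Tested without the filter, 3212 of the 22411 genes on the array were called higher and 3467 lower. Of the 11, 2 were called in that fit, FBXW10 as given above (adjusted p = 0.00599) and FBXL19-AS1, which fell from 4.11 and 3.87 to 3.51 and 3.55 (-0.46 ± 0.10, adjusted p = 0.0236). FBXL19, on whose antisense side that RNA lies, fell as well, from 6.24 and 6.06 to 5.85 and 5.83. At the filter level the nearest genes inside were FBXL8 (mean 4.31), FBXO24 (4.40) and FBXL15 (4.43), and the nearest outside FBXO15 (4.12), FBXW10 (3.93) and FBXO32 (3.89).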

How the data were processed

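Total RNA from HCT116 cells was hybridised to 4 Affymetrix whole-transcriptome arrays. The deposited values are log2 signals; the submitters' processing notes name RMA and Affymetrix Expression Console. Their versions, settings and genome build are not given in the sources. RMA compresses differences at low signal and assumes similar overall distributions on all arrays. Of 70523 rows 67528 were transcript clusters and 2995 others were left out. Symbols came from the platform annotation (23781 clusters with 1 symbol, 1543 with several, 42204 unnamed here) and were updated through RefSeq for GRCh38.p14, where 23777 matched. The cluster with the highest mean signal stood for each gene. Genes with a mean of at least 4.28 were fitted in R 4.3.3 by lmFit and eBayes of limma 3.58.1, without covariates. P-values of the 13956 genes were adjusted by Benjamini-Hochberg and read at 0.05. The standard errors had a median of 0.0832, and the number of arrays limits the precision. The fit was also run on simulated arrays drawn independently of each other. Such a run cannot show whether the p-values hold here, because the independence of the real arrays is not known. Promoter windows came from RefSeq, and figures were drawn with matplotlib 3.10.9.

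Groups and replicate numbers came from the sample titles. Named genes were SKP1, SKP2, all cullins, F-box genes called with at least a 2-fold change, F-box genes with known substrates, the brightest and dimmest members, those beside the filter level and up to 4 genes of each list with the smallest p; others were named after their values were seen. The genes and lists were chosen with earlier results of these data known. Alternatives were other filters, quantile normalisation, centring, trended or robust variance, the mean of clusters, a block for replicate number, omission of each array, an adjusted p of 0.01 and a 2-fold minimum.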

Additional observations from a re-analysis of the deposited data

How the results depend on the processing

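Counts of called ligase genes stayed within 1.5 times of the 14 higher and 17 lower under other filters, quantile normalisation, centring, trended or robust variance and the mean of clusters. They moved further with 1 array left out (3 to 9 higher and 6 to 10 lower), with an adjusted p of 0.01 (11 lower) and with a minimum of 2-fold (2 higher and 2 lower). Over all tested genes, leaving out 1 array gave 1377 to 2097 higher and 1745 to 2414 lower in place of 3229 and 3679, and the 2-fold minimum 713 and 787. No called ligase gene changed sign under any setting. Among genes that were not called, centring turned or cancelled the small differences of FBXL15 (-0.005), FBXO2, FBXO25 (both 0), FBXO24 (-0.035), FBXO44 (-0.065) and CKS1B (-0.07), and quantile normalisation those of FBXO24 (-0.0275), FBXO38 (0.0063), FBXO44 (-0.015) and CKS1B (-0.005). With 1 array left out, differences ran from -0.23 to 0.08 for CUL4B, from -0.245 to 0.125 for CUL5, from -0.23 to 0.12 for FBXL14, from -0.21 to 0 for FBXL6, from -0.01 to 0.09 for FBXO24, from -0.06 to 0 for FBXO38, from -0.05 to 0.07 for FBXO44, from -0.02 to 0.01 for FBXO7, from -0.02 to 0.03 for CKS1B, and from -0.08 to 0 for CDK2. Centring moved the median difference of all genes from 0.005 to -0.07. With the replicate number as a block, 12 ligase genes were higher and 12 lower, and 2838 and 3300 of all genes. That block ended the calls of CUL1 (adjusted p = 0.0785), CUL7 (0.0586), CUL9 (0.0909), FBXL19 (0.0549), FBXO27 (0.0509), FBXO34 (0.0504) and FBXO42 (0.0797). Among the marker genes, KRT19 was not called without the filter (0.0604), with centring (0.0566) or with the block (0.0627). COL1A1 was not called with quantile normalisation (0.0574), centring (0.0792) or the block (0.0505), and KRT18 was not called without the filter (0.0512). Deviations of same-numbered arrays correlated at 0.121 over genes, and nothing in the labels says that a number marks a shared culture or day. RMA compresses differences near the filter level, where several F-box genes lie.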
